A study of Mus musculus with 12 samples.

Results

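The Egr and Nr4a immediate early families were followed across 12 mouse brain libraries. The 7 genes Egr1, Egr2, Egr3, Egr4, Nr4a1, Nr4a2 and Nr4a3 were taken by gene name from the 56748 genes of the deposited table, 4 from the Egr family and 3 from the Nr4a family. Messenger RNA was sequenced from adult C57BL/6 mice, an inbred strain with no genetic change named in the labels, with 2 females and 2 males in each of 3 arms. LPS+DMA mice (n = 4) received lipopolysaccharide (LPS), an outer membrane molecule of Gram-negative bacteria that triggers inflammation, by intraperitoneal injection at 0.5 mg/kg each day for 7 days, together with daily intraperitoneal N,N-dimethylacetamide (DMA), a solvent for which the labels state no dose. LPS mice (n = 4) received the same LPS without DMA, and PBS mice (n = 4) received phosphate-buffered saline on the same schedule. None of these 3 arms received DMA without LPS, so DMA in the absence of LPS was not analysed here. Brains were collected on day 7 and each mouse gave 1 library.

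Egr genes encode zinc finger transcription factors, and Nr4a genes encode orphan nuclear receptors that act without a classical hormone ligand. Both families are immediate early genes: in neurons, calcium entry and growth factor signalling switch them on within minutes through factors already present, namely SRF with its ELK and MRTF partners at CArG boxes and CREB at cyclic AMP response elements (CRE). In the forebrain they are used as markers of recent neuronal activity and are needed for lasting synaptic change, and the RNA is short-lived.

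The genes lie on different chromosomes. In the deposited table (GRCm39), Egr1 lies at chr18:34992876-34998037, Egr2 at chr10:67371305-67378018 and Egr3 at chr14:70314652-70320063, all on the plus strand. Egr4 lies at chr6:85488103-85490571 on the minus strand. Nr4a1 lies at chr15:101152150-101172676 and Nr4a3 at chr4:48045153-48086447 on the plus strand, and Nr4a2 at chr2:56996842-57014015 on the minus strand. All 7 are protein-coding, with gene lengths of 2148 bases for Egr4 to 5987 bases for Nr4a3.

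The library totals ran from 27.5 to 41.4 M (megareads), with a median of 34.4 M. The tissue is labelled as whole brain, but the levels of regional markers were uneven between libraries. Gabra6, which encodes a GABA-A receptor subunit made by granule neurons of the cerebellum, exceeded 5 FPKM (fragments per kilobase of gene, scaled to library depth) in 4 libraries, namely female replicate 1 and both males of the LPS arm and female replicate 1 of the PBS arm, and was 0 to 0.170 FPKM in the other 8. Camk2a, a kinase of forebrain excitatory neurons, was 297 to 350 FPKM in LPS+DMA libraries, 9.45 to 291 FPKM in LPS libraries and 138 to 268 FPKM in PBS libraries. The 3 lowest Camk2a values were 50.8 FPKM in LPS female replicate 1, 9.45 FPKM in LPS male replicate 1 and 10.6 FPKM in LPS male replicate 2. The summed level of 8 general neuron markers was 843 to 1136 FPKM in LPS+DMA libraries, 865 to 911 FPKM in LPS libraries and 873 to 966 FPKM in PBS libraries. Single markers within that sum went in opposite directions. By the test given below, 2 of the 8 (Rbfox3 and Syt1) were called higher in LPS+DMA than in LPS and 2 (Tubb3 and Stmn2) lower. Of all tested genes, 5.79% were called higher and 3.88% lower. In bulk tissue, fewer cells of a type and less RNA per cell cannot be told apart.

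The windows around the start of transcription are shown because the 7 genes varied together across libraries, and the elements through which activity is known to reach both families can be looked for there. RefSeq promoter windows of 300 bases (GRCm38.p6) were matched by symbol for 5 of the 7 genes. The windows are Egr2 at chr10:67537619-67537918 (plus strand), Egr4 at chr6:85513540-85513839 (minus strand), Nr4a1 at chr15:101266596-101266895 (plus strand), Nr4a2 at chr2:57123954-57124253 (minus strand) and Nr4a3 at chr4:48045055-48045354 (plus strand). Each is written 5′ to 3′ on the strand of its gene, and capitals mark the CRE core TGACG on either strand (read as CGTCA on the other strand) and, in Egr2, the CArG box.
Egr2: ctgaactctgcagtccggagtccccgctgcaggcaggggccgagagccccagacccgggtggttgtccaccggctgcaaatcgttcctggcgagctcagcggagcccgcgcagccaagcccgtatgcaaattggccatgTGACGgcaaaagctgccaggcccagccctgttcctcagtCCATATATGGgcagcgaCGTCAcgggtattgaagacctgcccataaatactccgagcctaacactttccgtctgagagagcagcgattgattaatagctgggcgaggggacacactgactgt
Egr4: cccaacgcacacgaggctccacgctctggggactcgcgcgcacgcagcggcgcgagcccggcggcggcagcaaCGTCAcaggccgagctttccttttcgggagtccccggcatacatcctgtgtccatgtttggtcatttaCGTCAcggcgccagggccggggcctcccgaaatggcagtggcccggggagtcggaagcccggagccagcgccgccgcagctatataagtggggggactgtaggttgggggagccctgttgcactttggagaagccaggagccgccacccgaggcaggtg
Nr4a1: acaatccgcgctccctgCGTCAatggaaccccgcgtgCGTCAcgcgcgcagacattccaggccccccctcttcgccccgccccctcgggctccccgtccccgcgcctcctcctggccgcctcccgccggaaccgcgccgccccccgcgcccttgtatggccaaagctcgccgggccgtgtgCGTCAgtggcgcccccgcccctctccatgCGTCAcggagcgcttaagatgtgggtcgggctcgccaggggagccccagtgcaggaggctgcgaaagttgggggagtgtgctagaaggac
Nr4a2: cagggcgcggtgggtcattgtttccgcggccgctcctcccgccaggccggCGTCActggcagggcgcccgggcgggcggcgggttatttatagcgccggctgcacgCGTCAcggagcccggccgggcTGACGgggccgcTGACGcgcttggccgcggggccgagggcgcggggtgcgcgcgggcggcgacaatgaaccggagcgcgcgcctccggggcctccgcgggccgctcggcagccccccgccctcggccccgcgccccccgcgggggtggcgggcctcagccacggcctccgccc
Nr4a3: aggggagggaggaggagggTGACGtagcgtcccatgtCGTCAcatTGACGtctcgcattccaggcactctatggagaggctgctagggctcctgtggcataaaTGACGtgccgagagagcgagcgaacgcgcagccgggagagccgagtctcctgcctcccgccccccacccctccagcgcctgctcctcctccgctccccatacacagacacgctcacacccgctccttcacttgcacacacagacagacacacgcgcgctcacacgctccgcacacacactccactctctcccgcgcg

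The CRE core was present in all 5 windows, with 2 copies in Egr2, 2 in Egr4 and 4 in each of Nr4a1, Nr4a2 and Nr4a3, and 20.8% of the 32851 windows of this length hold at least 1. Of the 5 windows listed for Egr2, the one shown was picked as the first with the most marked bases, so its count is a description only. The full element TGACGTCA was in none of the 5 windows and is in 1.79% of all windows. A CArG box, searched by its consensus on both strands, was in the Egr2 window alone among these 5. It is in 1.63% of all windows. Egr1 was left out of the search with chromosome 18, and no window was matched for Egr3, so the motif counts cover neither gene. The Egr binding sequence GCGNGGGCG was in the windows of Nr4a1 and Nr4a2, once each, and is in 5.55% of all windows. The Nr4a binding sequence AAAGGTCA was in none of the 5 and is in 1.51% of all windows. Each match is a run of letters in a window, not a site shown to be bound.

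All 7 genes had higher mean levels in LPS+DMA brains than in LPS brains. Egr1, Egr3, Egr4 and Nr4a1 passed the test (limma on log2(FPKM + 1), Benjamini-Hochberg adjusted p under 0.05), with log2 changes of 1.68 to 2.82. Egr2, Nr4a2 and Nr4a3 were also higher on average but did not pass. Thus 4 of the 7 genes rose, where 9.67% of the 19571 tested genes were called in this comparison and 5.79% were called higher in LPS+DMA. At an unadjusted p under 0.05, 6 of the 7 were higher in LPS+DMA, all but Nr4a2, where 14.9% of tested genes were. None of the 7 had every LPS+DMA library above every LPS library, as 6.26% of tested genes did. The median log2 change of the 7 was 1.68, beside 0.01 over all tested genes.

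Egr1, also called Zif268, is the family member most used as a marker of neuronal activity and is needed for late phases of hippocampal potentiation. Its level was 67.3 and 44.7 FPKM in LPS+DMA females, 20.1 and 56.6 FPKM in LPS+DMA males, 6.71 and 37.6 FPKM in LPS females, 4.77 and 4.74 FPKM in LPS males, 43.3 and 65.9 FPKM in PBS females, and 27.5 and 34.8 FPKM in PBS males. Of the LPS libraries, 3 stood below every library of the other arms, and LPS female replicate 2 stood within the range of both, so the arms overlapped. The arm means were 47.2 ± 20.3 FPKM in LPS+DMA, 13.5 ± 16.1 FPKM in LPS and 42.9 ± 16.7 FPKM in PBS (SD, n = 4 each). Egr1 rose in LPS+DMA over LPS by 2.15 on the log2 scale (SE 0.46, limma adjusted p = 0.0234).

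Egr3, a factor needed for muscle spindle development and induced by activity in cortical neurons, showed the largest change of the 7. Its level was 38.6 and 22.6 FPKM in LPS+DMA females, 11.4 and 26.6 FPKM in LPS+DMA males, 2.44 and 20.2 FPKM in LPS females, 0.322 and 0.336 FPKM in LPS males, 22.4 and 30.7 FPKM in PBS females, and 22.3 and 21.4 FPKM in PBS males. PBS libraries other than female replicate 2 were close together, at 21.4 to 22.4 FPKM, while the LPS males were close to 0 and LPS female replicate 2 lay inside the LPS+DMA range. The arm means were 24.8 ± 11.2 FPKM in LPS+DMA, 5.82 ± 9.63 FPKM in LPS and 24.2 ± 4.38 FPKM in PBS (SD, n = 4 each). Egr3 rose in LPS+DMA over LPS by 2.82 on the log2 scale (SE 0.59, limma adjusted p = 0.0225). The LPS values rested on 54 to 2774 reads, so Egr3 was detected in every library.

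Egr4, the shortest of the 4 Egr genes in this table, is expressed mainly in the nervous system and in male germ cells. Its level was 9.36 and 8.35 FPKM in LPS+DMA females, 5.94 and 6.12 FPKM in LPS+DMA males, 1.52 and 8.17 FPKM in LPS females, 0.244 and 0.583 FPKM in LPS males, 5.96 and 9.99 FPKM in PBS females, and 5.10 and 4.38 FPKM in PBS males. The 2 LPS males and LPS female replicate 1 were below all other libraries, and LPS+DMA was the tightest arm. The arm means were 7.44 ± 1.68 FPKM in LPS+DMA, 2.63 ± 3.73 FPKM in LPS and 6.36 ± 2.51 FPKM in PBS (SD, n = 4 each). Egr4 rose in LPS+DMA over LPS by 1.68 on the log2 scale (SE 0.38, limma adjusted p = 0.0256).

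Egr2, also called Krox20, patterns the hindbrain, drives myelination in Schwann cells and is an activity-induced gene in neurons. It was the lowest of the 7, with 3.39 and 1.68 FPKM in LPS+DMA females, 0.153 and 1.92 FPKM in LPS+DMA males, 0.156 and 1.20 FPKM in LPS females, 0.0772 and 0 FPKM in LPS males, 1.83 and 3.72 FPKM in PBS females, and 0.674 and 0.859 FPKM in PBS males. LPS+DMA male replicate 1 stood among the low LPS libraries, unlike for the other Egr genes. That library also had the lowest microglial and red blood cell marker sums of the 12, at 49.6 and 29.1 FPKM. The value of 0 came from 0 reads, which allows up to 0.0226 FPKM, and the LPS libraries held 0 to 127 reads. The Egr2 difference between LPS+DMA and LPS was 0.96 on the log2 scale (SE 0.31, limma adjusted p = 0.0710). With reads recovered from the FPKM values and limma voom, it was 3.22 (adjusted p = 0.0525), and with a pseudocount of 0.1 it was 2.27 (adjusted p = 0.0499), since a pseudocount of 1 shrinks the change of a gene this low. Schwann cell markers, which could travel with cranial nerve tissue, summed to 3.89 to 5.56 FPKM in LPS+DMA libraries, 3.21 to 6.42 FPKM in LPS libraries and 4.10 to 5.21 FPKM in PBS libraries, with 3 of the 6 markers below 0.5 FPKM and 1 of these at 0 in all 12 libraries.

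Nr4a1, also called Nur77, is induced by calcium signals in neurons and by activation in immune cells. Its level was 23.4 and 18.6 FPKM in LPS+DMA females, 9.56 and 12.9 FPKM in LPS+DMA males, 3.41 and 12.1 FPKM in LPS females, 1.85 and 2.34 FPKM in LPS males, 12.2 and 23.5 FPKM in PBS females, and 9.26 and 12.9 FPKM in PBS males. As for Egr1, the same 3 LPS libraries were below every other library. The arm means were 16.1 ± 6.13 FPKM in LPS+DMA, 4.93 ± 4.83 FPKM in LPS and 14.5 ± 6.24 FPKM in PBS (SD, n = 4 each). Nr4a1 rose in LPS+DMA over LPS by 1.75 on the log2 scale (SE 0.32, limma adjusted p = 0.0203), the smallest p of the 7.

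Nr4a2, also called Nurr1, maintains midbrain dopamine neurons and also marks the claustrum and deep cortical layers. Its level was 7.98 and 7.91 FPKM in LPS+DMA females, 5.78 and 11.9 FPKM in LPS+DMA males, 4.33 and 13.4 FPKM in LPS females, 1.53 and 2.45 FPKM in LPS males, 8.65 and 17.8 FPKM in PBS females, and 4.43 and 3.44 FPKM in PBS males. LPS female replicate 2 exceeded every LPS+DMA library, and LPS female replicate 1 lay within the PBS range. The Nr4a2 difference between LPS+DMA and LPS was 0.85 on the log2 scale (SE 0.41, limma adjusted p = 0.201), which did not pass. Markers of the other cells that express Nr4a2 varied as well. Midbrain dopamine markers summed to 17.9 to 68.9 FPKM in LPS+DMA, 39.7 to 104 FPKM in LPS and 26.4 to 107 FPKM in PBS, and claustrum and deep layer markers to 31.3 to 50.8 FPKM in LPS+DMA, 28.3 to 42.6 FPKM in LPS and 23.0 to 56.5 FPKM in PBS. In PBS female replicate 2, which had the highest Nr4a2, the claustrum and deep layer sum was the highest of the 12 libraries, as was Th, the rate-limiting enzyme of dopamine synthesis, at 16.1 FPKM. Slc6a3, the dopamine transporter, was 0.439 FPKM in that library, and its midbrain dopamine sum, at 26.4 FPKM, was the lowest of the PBS arm. The part of these cells in the Nr4a2 values was not tested.

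Nr4a3, also called Nor1, is the third receptor of the family and is induced by the same stimuli. Its level was 4.81 and 3.96 FPKM in LPS+DMA females, 2.49 and 7.20 FPKM in LPS+DMA males, 3.11 and 4.98 FPKM in LPS females, 0.824 and 1.01 FPKM in LPS males, 5.52 and 7.48 FPKM in PBS females, and 2.63 and 2.47 FPKM in PBS males. Only the 2 LPS males stood below all other libraries. The Nr4a3 difference between LPS+DMA and LPS was 0.80 on the log2 scale (SE 0.31, limma adjusted p = 0.123), which did not pass.

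**Figure D1:**
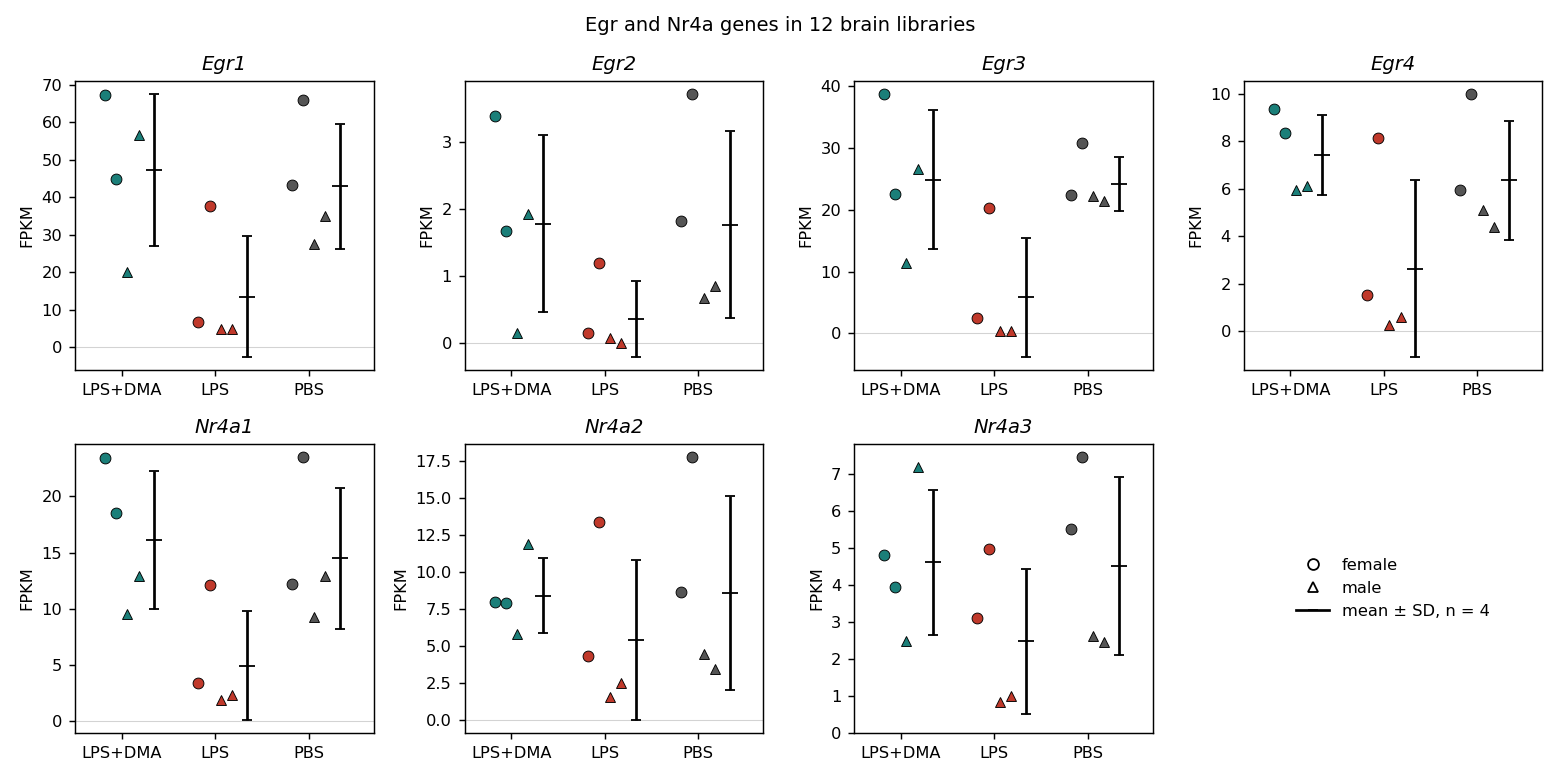
FPKM of the 7 genes (y axis, linear, per panel) in 12 libraries by arm, with 1 symbol per library, circles for females and triangles for males, and the mean ± SD of each arm (n = 4) beside it. In the LPS arm 1 circle, female replicate 2, stands near the other arms while the 2 males are lowest.

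By arm mean in LPS+DMA brains, on the FPKM scale, which is per gene length, the order of levels ran from Egr1 (47.2) through Egr3 (24.8), Nr4a1 (16.1), Nr4a2 (8.39), Egr4 (7.44) and Nr4a3 (4.61) to Egr2 (1.79). Of these neighbours, Egr3 and Nr4a1 differed by less than their larger SD, as did Nr4a2 and Egr4. In LPS brains the order was Egr1 (13.5), Egr3 (5.82), Nr4a2 (5.42), Nr4a1 (4.93), Egr4 (2.63), Nr4a3 (2.48) and Egr2 (0.358), and the neighbours differed by less than their larger SD except Nr4a3 and Egr2. PBS brains had the same order as LPS+DMA brains, from Egr1 at 42.9 to Egr2 at 1.77 FPKM. There the neighbours from Nr4a1 through Nr4a2 and Egr4 to Nr4a3 differed by less than the larger SD, and the others by more.

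For LPS against PBS, all 7 genes had lower means in LPS brains and none passed the test. The log2 changes were -2.89 for Egr3 (SE 0.59, limma adjusted p = 0.181), -2.07 for Egr1 (SE 0.46, limma adjusted p = 0.218), -1.60 for Nr4a1 (SE 0.32, limma adjusted p = 0.180) and -1.45 for Egr4 (SE 0.38, limma adjusted p = 0.283). They were -0.98 for Egr2, -0.74 for Nr4a3 and -0.68 for Nr4a2, with adjusted p between 0.323 and 0.580. The comparison called 0.0102% of the 19571 genes by the adjusted p, and 0.00% as lower in LPS. At an unadjusted p under 0.05, 6 of the 7 genes were lower in LPS (all but Nr4a2), where 11.0% of all tested genes reached that level and 6.41% did so as lower in LPS, and limma voom called 0 of the 7. Egr3 alone had every LPS library below every PBS library, an arrangement found in 3.30% of tested genes. The LPS libraries are shared with the comparison of LPS+DMA against LPS, so opposite signs in these comparisons are not separate evidence.

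For LPS+DMA against PBS, the means were close and no gene passed, by limma or by limma voom. None had an unadjusted p under 0.05, where 11.4% of tested genes had one, and 0.0102% of the tested genes were called by the adjusted p. The log2 differences ran from -0.07 for Egr3 (95% interval -1.37 to 1.23) to 0.23 for Egr4 (95% interval -0.59 to 1.06). Egr1 differed by 0.08 (95% interval -0.92 to 1.09), Nr4a2 by 0.17 (95% interval -0.74 to 1.08) and Nr4a1 by 0.15 (95% interval -0.55 to 0.85). Egr2 differed by -0.02 (95% interval -0.70 to 0.66) and Nr4a3 by 0.06 (95% interval -0.63 to 0.75). These intervals leave room for changes in either direction, so equality of the arms was not shown.

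**Figure D2:**
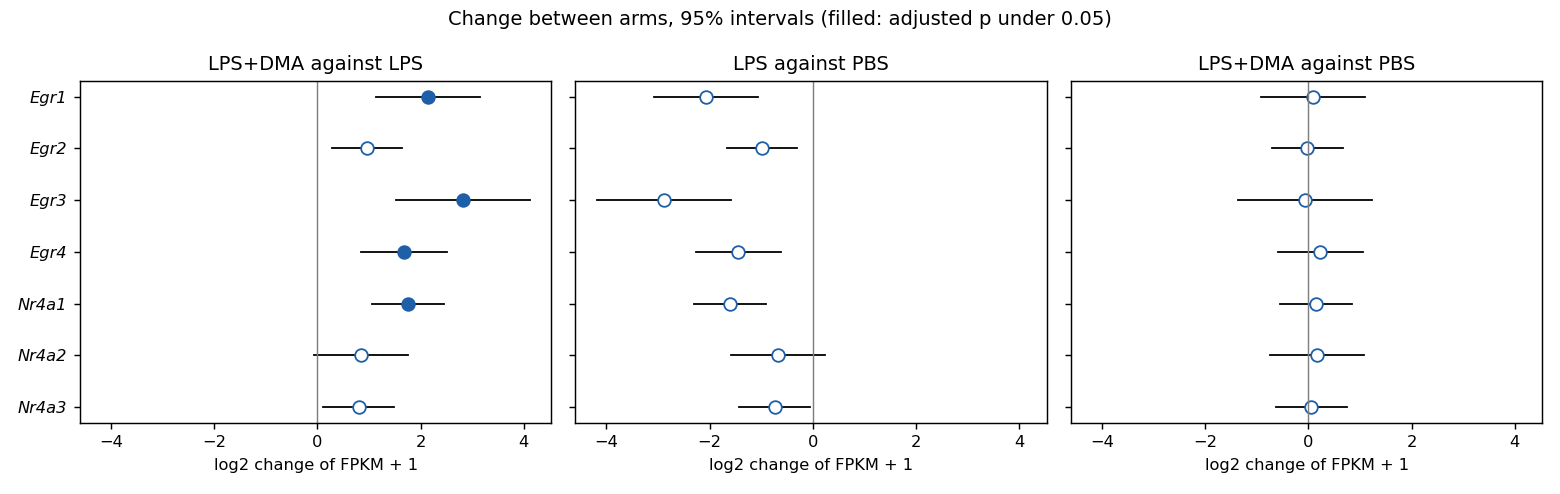
Log2 change of FPKM + 1 (x axis) with 95% intervals from limma for the 7 genes (rows) in the 3 comparisons (panels), with filled symbols for an adjusted p under 0.05. The 4 filled symbols, for Egr1, Egr3, Egr4 and Nr4a1, are all in the panel of LPS+DMA against LPS, and the intervals of LPS+DMA against PBS all cross 0.

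The LPS arm was split by library rather than by sex alone. The 2 LPS males were among the 3 lowest libraries of the 12 for all 7 genes, and LPS female replicate 1 was among them for 4. LPS female replicate 2 lay inside the LPS+DMA range for 6 of the 7 genes, all but Nr4a2, and inside the PBS range for 6 of the 7, all but Egr3. Without LPS female replicate 2, 6 of the 7 genes passed for LPS+DMA against LPS, all but Nr4a3 (log2 difference 1.00, adjusted p = 0.0519), and 4 passed for LPS against PBS. Those 4 were Egr1 (log2 change -2.61, adjusted p = 0.00231), Egr3 (log2 change -3.65, adjusted p = 0.000674), Egr4 (log2 change -1.95, adjusted p = 0.000678) and Nr4a1 (log2 change -1.96, adjusted p = 0.00215). LPS female replicate 2 was singled out here by these same values, so these calls are a description. The number of tested genes called in all also changed between fits without 1 library. With any 1 of the other LPS libraries left out, 0 of the 7 passed for LPS+DMA against LPS. The log2 difference of Egr1 was then 1.82 without LPS female replicate 1 (adjusted p = 0.0810), 2.04 without LPS male replicate 1 (adjusted p = 0.0855) and 2.04 without LPS male replicate 2 (adjusted p = 0.0826). Egr4 lost its call in 5 of the 12 fits without 1 library. Beside those 3 LPS libraries, these were LPS+DMA male replicate 2 (log2 difference 1.58, adjusted p = 0.0545, with 3 of the 7 genes passing) and LPS+DMA male replicate 1 (log2 difference 1.60, adjusted p = 0.0515, with Egr2 passing at adjusted p = 0.0411). Nor did Egr4 pass without a sex term (adjusted p = 0.0560). With no filter on low values none of the 7 genes passed, Egr4 among them (adjusted p = 0.0619). The same held with only these 2 arms in the fit (adjusted p = 0.0786 for Egr4).

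The gene levels moved with the levels of forebrain markers in the libraries. The mean log2(FPKM + 1) of 18 cortex and hippocampus markers was 4.15 to 4.76 in LPS+DMA libraries. In the LPS arm it was 4.22 in female replicate 2, 2.84 in female replicate 1, 1.92 in male replicate 1 and 2.09 in male replicate 2, and in PBS libraries it was 3.79 to 4.34. Tbr1, a transcription factor of cortical projection neurons, was 9.07 to 24.5 FPKM in LPS+DMA libraries, 13.3 FPKM in LPS female replicate 2, 0.0512 to 1.19 FPKM in the other LPS libraries and 8.63 to 14.5 FPKM in PBS libraries. PBS female replicate 1 carried a cerebellar signal (Gabra6 at 74.6 FPKM) without low Egr or Nr4a levels, and its cortex and hippocampus score was 3.79. With that score as a covariate, the log2 difference of LPS+DMA over LPS was 0.26 for Egr1, 0.36 for Egr2, 0.09 for Egr3, -0.02 for Egr4, 0.45 for Nr4a1, -0.61 for Nr4a2 and -0.18 for Nr4a3, and 0 of the 7 passed. The same fit gave -0.69 for Egr1, -0.90 for Egr3, -0.65 for Nr4a1 and 0.38 for Nr4a2 in LPS against PBS. This covariate was added after the values had been seen, and the score and the treatment arm are partly the same contrast, since 3 of the 4 LPS libraries hold its lowest values. Without the 4 libraries with Gabra6 above 5 FPKM, LPS female replicate 2 is the single LPS library left, assumed to vary like the others, and the log2 differences of LPS+DMA over LPS were 0.61 for Egr1, 0.48 for Egr3, 0.19 for Egr4 and 0.78 for Nr4a1.

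**Figure D3:**
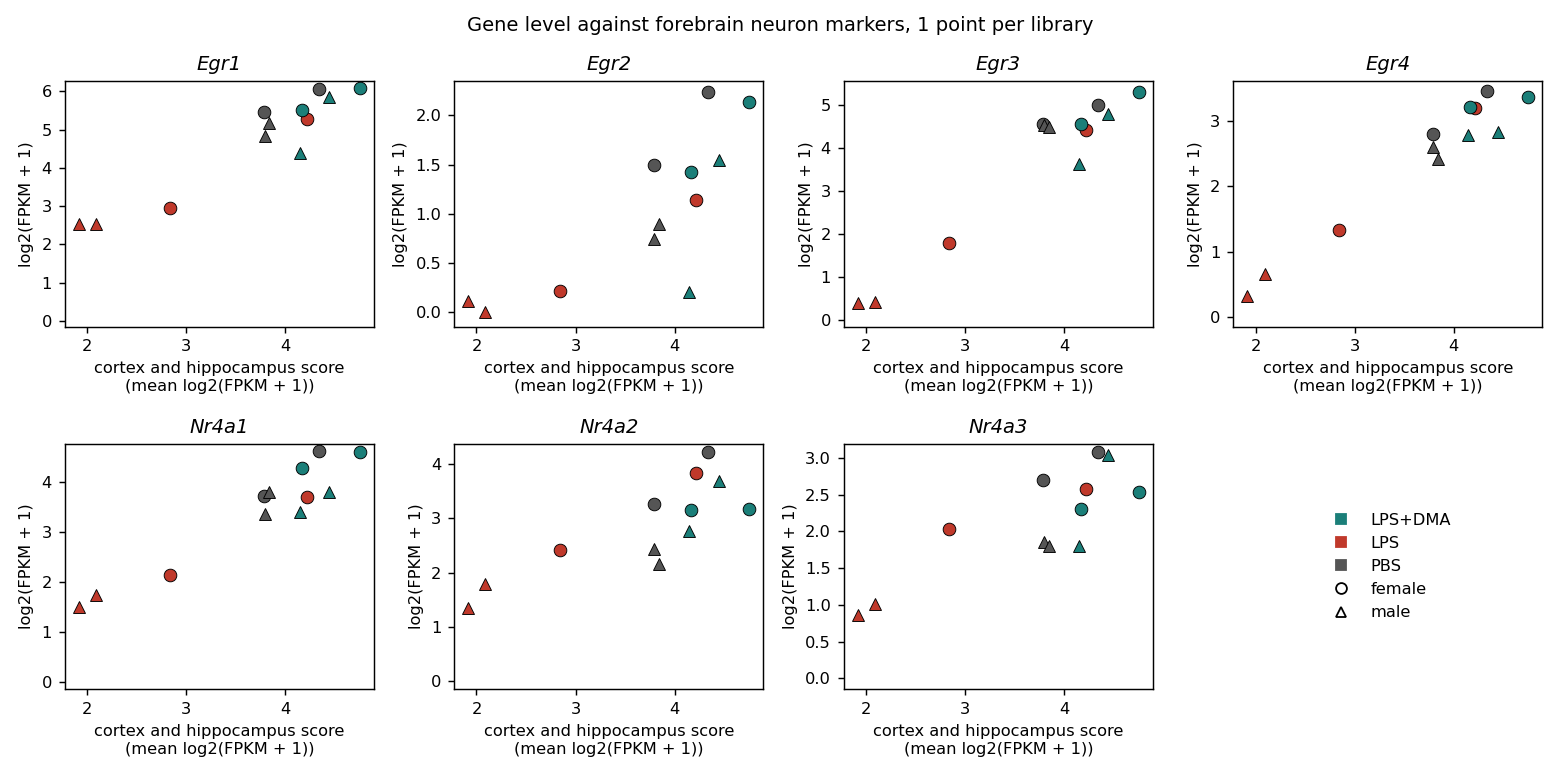
Level of each gene as log2(FPKM + 1) (y axis) against the mean log2(FPKM + 1) of 18 cortex and hippocampus markers (x axis), with 1 point per library, colours for arms and shapes for sex. The 3 LPS libraries with scores of 2.84 or less lie at the left of every panel, the 2 males among them lowest, and LPS female replicate 2, at 4.22, lies among the other arms.

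**Figure D4:**
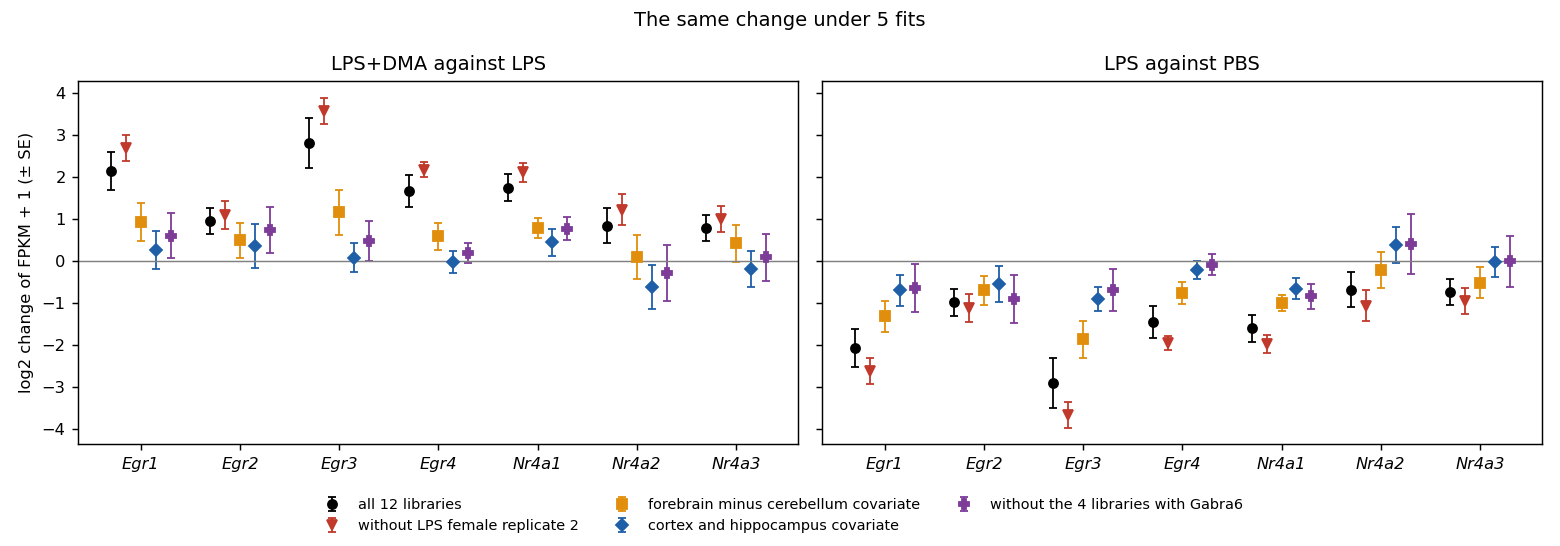
Log2 change of FPKM + 1 with its SE (y axis) for each gene (x axis) in LPS+DMA against LPS (left) and LPS against PBS (right), under 5 fits. The changes are larger without LPS female replicate 2, and with the cortex and hippocampus covariate those of LPS+DMA against LPS lie between -0.61 and 0.45.

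Other tissue markers also differed between libraries. Cerebellar markers summed to 21.2 to 31.1 FPKM in LPS+DMA, 31.7 to 850 FPKM in LPS and 30.0 to 573 FPKM in PBS. Brainstem and spinal cord markers summed to 2.31 to 18.6 FPKM in LPS+DMA, 15.4 to 236 FPKM in LPS and 2.99 to 51.1 FPKM in PBS. Striatal markers summed to 58.9 to 1100 FPKM in LPS+DMA, 98.1 to 337 FPKM in LPS and 83.7 to 130 FPKM in PBS. Libraries of 1 arm thus differed widely in regional markers. Choroid plexus markers summed to 5.87 to 437 FPKM in LPS+DMA, 193 to 1838 FPKM in LPS and 7.25 to 347 FPKM in PBS. Red blood cell markers, 7 of 8 matched by symbol, summed to 29.1 to 297 FPKM in LPS+DMA, 243 to 946 FPKM in LPS and 71.1 to 116 FPKM in PBS. Among these lists, 12 of 18 cortex and hippocampus markers rose in LPS+DMA against LPS, while 6 of 12 tested brainstem markers and 11 of 16 choroid plexus markers fell, where 5.79% of all tested genes were called higher and 3.88% lower. With the choroid plexus and red blood cell scores as covariates, none of the 7 genes passed for LPS+DMA against LPS, and the log2 differences were 1.82 for Egr1, 2.60 for Egr3 and 1.15 for Nr4a1 (adjusted p = 0.979 each). Microglial markers summed to 49.6 to 88.9 FPKM in LPS+DMA, 110 to 148 FPKM in LPS and 77.7 to 98.2 FPKM in PBS, and 3 of 7 fell in LPS+DMA against LPS. Blood monocyte and T cell markers summed to 1.16 to 6.06 FPKM in LPS+DMA, 2.55 to 3.22 FPKM in LPS and 0.428 to 2.29 FPKM in PBS, with 7 of 9 below 0.5 FPKM in all libraries. The other markers were Cd4, at 2.66 ± 2.33 FPKM in LPS+DMA, 0.703 ± 1.23 FPKM in LPS and 0.212 ± 0.158 FPKM in PBS, and Trac, at 0.460 ± 0.385 FPKM in LPS+DMA, 1.59 ± 0.867 FPKM in LPS and 1.16 ± 0.764 FPKM in PBS (SD, n = 4 each). Neither was called in any of the 3 comparisons. Apart from the covariate fits, the part of these tissues in the Egr and Nr4a values was not tested.

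Some genes that carry activity signals to both families rose in LPS+DMA over LPS. Of 24 such genes, covering SRF and its partners, the CREB, CRTC and MEF2 factors, and the MAP kinase and calcium kinase arms, 10 rose and 0 fell, beside 5.79% of all tested genes called higher, with a median log2 change of 0.44. Of the other 14, Rps6ka1, a MAP kinase-activated kinase, Elk3, Mapk7 and Creb1 had lower means in LPS+DMA, with log2 differences of -1.41 for Rps6ka1 (limma adjusted p = 0.0731), -0.30 for Elk3, -0.19 for Mapk7 and -0.05 for Creb1, named after their values were seen. The cortex and hippocampus markers moved in the same comparison, with 12 of 18 rising. Mef2d, an activity-dependent transcription factor, averaged 41.7 ± 2.46 FPKM in LPS+DMA and 22.0 ± 6.94 FPKM in LPS (log2 change 0.94, SE 0.16, limma adjusted p = 0.0188). Mrtfb, an SRF coactivator, averaged 34.4 ± 5.04 FPKM in LPS+DMA and 11.5 ± 8.63 FPKM in LPS (log2 change 1.70, SE 0.31, limma adjusted p = 0.0197). Mef2c, which also stands in the cortex and hippocampus marker list, averaged 33.0 ± 8.68 FPKM in LPS+DMA and 8.23 ± 11.2 FPKM in LPS (log2 change 2.56, SE 0.51, limma adjusted p = 0.0213). In LPS against PBS none of the 24 was called by limma, 7 had an unadjusted p under 0.05, where 11.0% of all tested genes had one, and Mef2c was the first by p (log2 difference -2.02, adjusted p = 0.280). Against PBS, LPS+DMA brains had none called and 9 had an unadjusted p under 0.05, where 11.4% of all tested genes had one, led by Mef2d (log2 difference 0.54, adjusted p = 0.328).

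Among 37 other immediate early genes, 13 rose and 0 fell in LPS+DMA against LPS, where 5.79% of all tested genes were called higher and 3.88% lower, with a median log2 change of 0.58. By direction alone, called or not, 29 of the 37 were higher and 8 lower in LPS+DMA, beside 10013 higher and 9550 lower of 19571 tested genes. In the same comparison 12 of 18 cortex and hippocampus markers rose, and their part in these counts was not tested. Homer1, whose short form is induced by activity and uncouples glutamate receptors from their scaffold, averaged 21.4 ± 6.64 FPKM in LPS+DMA and 6.94 ± 6.81 FPKM in LPS (log2 change 1.78, SE 0.32, limma adjusted p = 0.0197). Plk2, a kinase of synaptic scaling, averaged 43.4 ± 12.4 FPKM in LPS+DMA and 12.8 ± 13.8 FPKM in LPS (log2 change 2.08, SE 0.42, limma adjusted p = 0.0214). Fosb, a subunit of the AP-1 factor, averaged 2.33 ± 0.517 FPKM in LPS+DMA and 0.633 ± 0.673 FPKM in LPS (log2 change 1.09, SE 0.23, limma adjusted p = 0.0238). In LPS against PBS 0 of the 37 were called and 19 had an unadjusted p under 0.05, where 11.0% of all tested genes had one, led by Homer1 (log2 difference -1.50, adjusted p = 0.195) and Nptx2, a synaptic pentraxin (log2 difference -1.94, adjusted p = 0.195). Against PBS, LPS+DMA brains had 0 called and 2 had an unadjusted p under 0.05, where 11.4% of all tested genes had one, led by Csrnp1 (log2 difference 0.55, adjusted p = 0.363).

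The regulators that act on the proteins themselves did not pass. Nab2, a corepressor that binds Egr proteins and is itself induced by them, averaged 11.0 ± 1.53 FPKM in LPS+DMA and 7.09 ± 2.63 FPKM in LPS (log2 difference 0.62, limma adjusted p = 0.0523). Nab1, its paralog, averaged 7.58 ± 2.29 FPKM in LPS+DMA and 10.9 ± 1.51 FPKM in LPS (log2 difference -0.50, limma adjusted p = 0.103). Rxrg, a retinoid X receptor of the group that pairs with Nr4a1 and Nr4a2, averaged 9.70 ± 7.91 FPKM in LPS+DMA and 3.02 ± 3.53 FPKM in LPS (log2 difference 1.30, limma adjusted p = 0.175) and is also in the striatal marker list. Rxrb differed by 0.18 (adjusted p = 0.522).

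Across the 12 libraries the 7 genes varied together, described here by Pearson's r of log2(FPKM + 1) with libraries from all arms pooled. The closest pairs were Egr1 with Egr3 (r = 0.976) and Egr1 with Nr4a1 (r = 0.976), and r was 0.950 for Nr4a2 with Nr4a3. Leaving out the 3 libraries lowest in the cortex and hippocampus score, over the other 9, r was 0.910 for Egr1 with Egr3, 0.847 for Egr1 with Nr4a1 and 0.909 for Nr4a2 with Nr4a3. For Egr3 with Nr4a2, r was 0.773 over 12 libraries and 0.379 over 9, and for Egr1 with Egr2 it was 0.905 over 12 and 0.978 over 9. All pairs share libraries, depth and tissue content.

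Among 14091 protein-coding candidates outside the families, those closest by r over 12 libraries were for Egr1 Mlip (0.981), Necab1 (0.981) and Homer1 (0.980), and for Egr3 Kcnv1 (0.985), Tbr1 (0.984) and Homer1 (0.979). For Egr4 they were Rtn4rl2 (0.987), Kcnf1 (0.984) and Rasgrp1 (0.982), and for Nr4a1 Vopp1 (0.988), Mlip (0.983) and Cx3cl1 (0.977). For Egr2 they were Thbs4 (0.967), Ttpal (0.963) and Klf10 (0.949), an immediate early gene. For Nr4a2 they were Dnajc1 (0.957), Mas1 (0.931) and Fosl2 (0.919), and for Nr4a3 Dnajc1 (0.949), Arsb (0.941) and Lancl2 (0.935). Over the 9 libraries without the lowest forebrain scores, r was 0.733 for Egr3 with Tbr1, 0.867 for Egr1 with Homer1, 0.947 for Egr2 with Thbs4 and 0.952 for Nr4a2 with Dnajc1.

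No gene of the 7 passed a test of a difference between sexes in its change, and 0.00% of tested genes did in each comparison, by limma. Limma voom called 0 of the 7 as well. In LPS against PBS, Egr3 changed by -1.67 in females and -4.10 in males on the log2 scale (difference 2.43, SE 1.01, adjusted p = 1). It was the only one of the 7 with an unadjusted p under 0.05 for the sex difference in that comparison, where 2.51% of tested genes had one. In LPS+DMA against LPS, Nr4a2 changed by 0.03 in females and 1.66 in males (difference -1.63, SE 0.69, adjusted p = 0.853), and Nr4a3 by 0.11 in females and 1.48 in males (difference -1.37, SE 0.51, adjusted p = 0.853). Both had an unadjusted p under 0.05, as 5.15% of tested genes did. In LPS+DMA against PBS none of the 7 had one, where 5.67% of tested genes did. LPS female replicate 2 is 1 of the 2 LPS females, so the female values for LPS rest partly on it. In PBS brains, both females exceeded both males for 6 of the 7 genes, all but Nr4a1, an order found in 20.0% of tested genes. With 2 libraries per sex and arm, these orders are descriptions.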

How the data were processed

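The deposited table gives FPKM per gene (fragments per kilobase, scaled by library), made by the authors, with each gene's length in bases beside them. The submitters' processing notes list STAR, GATK, edgeR 4.0.16, DESeq2 1.42.0, featureCounts 2.0.6, HISAT2 2.2.1 and fastp, with build GRCm39, and assign them no role. Per the labels' protocols, both strand-specific and non-strand-specific preparations are described, without saying which was used, so reads of overlapping genes on opposite strands may be mixed. FPKM times length was a whole multiple of 1 step within 0.1 reads for 100% of values up to 1000 reads, which gave the read totals. The limit for a count of 0 is 3 reads and covers counting error only.

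Samples were grouped by the treatment and sex in the labels. Labels name separate mice. The 19571 genes that reached 0.5 FPKM in 2 or more libraries, including all 7 described, were fitted as log2(FPKM + 1), a scale that understates changes of low genes, in R 4.3.3 with limma 3.58.1, with sex and treatment terms over 12 libraries, variances following the mean and robust to outlying genes, and Benjamini-Hochberg adjustment over all tested genes at 0.05. Sex differences used 1 mean per arm and sex. The fits were tested on simulated data. Alternatives covered the pseudocount, filter, scaling, voom on recovered reads, the variance model, terms, libraries, tissue scores as covariates and each library left out in turn. A tissue score is the mean log2(FPKM + 1) of a marker list.

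The genes and lists were chosen with earlier results of these data known. Genes named from a pathway list are up to 3 rising and 3 falling with the smallest adjusted p, or up to 2 by p where none passed; genes similar in pattern are the 3 with the highest Pearson correlation over 12 libraries; marker genes serve to describe libraries.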

Additional observations from a re-analysis of the deposited data

Results flagged for a closer look

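LPS female replicate 2 stood apart from the other 3 LPS libraries, above them, for Egr1 (37.6 FPKM), Egr2 (1.20 FPKM), Egr3 (20.2 FPKM), Egr4 (8.17 FPKM) and Nr4a1 (12.1 FPKM), by the gap to its nearest neighbour relative to the range of the arm (Dixon's test). PBS female replicate 2 stood apart above the other PBS libraries for Egr3 (30.7 FPKM). In all, 6 of 21 groups of 4 libraries were so marked, 0 in LPS+DMA, 5 in LPS and 1 in PBS. The test has a 5% level per group, and groups of genes that vary together are not independent. The share of all tested genes so marked in each arm was not counted, so these counts are a description only. LPS female replicate 2 had Camk2a at 291 FPKM, while the other LPS libraries had 50.8, 9.45 and 10.6 FPKM.

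The LPS+DMA against PBS difference of Nr4a2 ran in opposite directions by sex. It was -0.59 in females and 0.93 in males on the log2 scale, with both LPS+DMA females below both PBS females and both LPS+DMA males above both PBS males. The nearest females were close, at 7.98 FPKM in LPS+DMA and 8.65 FPKM in PBS. The share of all tested genes with such opposite orders was not counted, and with 2 libraries per sex and arm the orders are descriptions. The difference between sexes was -1.52 (SE 0.69, limma unadjusted p = 0.0559, adjusted p = 0.838) and did not pass.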

How the results depend on the processing

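Over 27 alternatives for each of 21 changes (7 genes in 3 comparisons), 476 values kept direction and side of the threshold, 42 lost the call, 8 gained it and 41 changed sign. In LPS+DMA against LPS, 4 of the 7 genes and 1892 genes in all passed. None of the 7 passed (0) and 83 in all with no filter, 5 with only the arms compared, 2 with the forebrain minus cerebellum covariate, 0 with the choroid plexus and red blood cell covariates, 0 with the cortex and hippocampus covariate, 7 with the striatum covariate and 5 without the 4 libraries with Gabra6 above 5 FPKM. The cause was not tested. Without 1 library, 0 to 6 of the 7 passed (0 to 4 in LPS against PBS) and 7 to 3465 in all. In LPS against PBS, 2 genes passed in all, with 4 for only the arms compared or without the Gabra6 libraries, 1 for a pseudocount of 0.1, no filter, voom or the replicate block, 0 for the first 3 covariate fits above, and 0 to 672 without 1 library. For LPS+DMA against PBS, 2 genes passed in all, with 1 for TPM, the replicate block or the forebrain minus cerebellum covariate, 0 for a pseudocount of 5, no filter, voom, no sex term, only the arms compared, the other covariates or without the Gabra6 libraries, and 0 to 6 without 1 library. TPM moved the median log2 change of all genes to -0.12 in LPS+DMA against LPS and -0.13 in LPS+DMA against PBS.

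Among called changes, Egr4 in LPS+DMA against LPS alone changed sign (-0.016 with the cortex and hippocampus covariate). Uncalled in LPS+DMA against LPS, Nr4a2 was -0.091 with the choroid plexus and red blood cell covariates, -0.28 without the Gabra6 libraries and -0.61 with the cortex and hippocampus covariate, which gave -0.18 for Nr4a3. In LPS against PBS, Nr4a2 was 0.41 with the choroid plexus and red blood cell covariates, 0.41 without the Gabra6 libraries and 0.38 with the cortex and hippocampus covariate. For LPS+DMA against PBS, the cortex and hippocampus covariate gave -0.43 (Egr1), -0.23 (Egr4), -0.20 (Nr4a1), -0.22 (Nr4a2) and -0.21 (Nr4a3). The forebrain minus cerebellum covariate gave -0.37 (Egr1), -0.17 (Egr4), -0.21 (Nr4a1), -0.11 (Nr4a2) and -0.077 (Nr4a3). The striatum covariate gave -0.00069 (Egr1), 0.24 (Egr2), -0.17 (Egr4) and -0.12 (Nr4a1). TPM gave -0.066 (Egr1) and -0.063 (Nr4a3), voom -0.057 (Nr4a3), no Gabra6 libraries -0.027 (Egr1) and -0.055 (Nr4a1), a pseudocount of 5 0.0036 (Egr2), and the choroid plexus and red blood cell covariates 0.25 (Egr3). Without 1 library the range was -0.25 to 0.29 (Egr1), -0.26 to 0.24 (Egr2), -0.38 to 0.17 (Egr3), -0.078 to 0.29 (Nr4a1), -0.20 to 0.44 (Nr4a2) and -0.32 to 0.25 (Nr4a3).

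Deviations of same-numbered samples correlated at 0.45 for females in LPS against PBS and 0.13 for males in LPS+DMA against PBS. Both exceed the limit of 0.1 set for pairing, while the other correlations ran from -0.071 to 0.036. The labels name separate mice, and the main fit did not pair samples by replicate number. A replicate block left 4 of the 7 genes and 2040 genes in all past the threshold in LPS+DMA against LPS, and 0 of the 7 and 1 gene in all in each comparison with PBS. Counts were lowest for Egr2, with 0 to 127 reads in LPS libraries; its change in LPS+DMA against LPS had an SE of 0.31 on the log2(FPKM + 1) scale and 0.96 in voom.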

Other observations

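The mix of family members differed between libraries, described by ratios chosen after the values were seen. Egr1 over Egr3, on the FPKM scale, was 1.74 to 2.13 in LPS+DMA libraries, 1.86 to 14.8 in LPS libraries and 1.23 to 2.15 in PBS libraries. The highest ratios, 14.8 and 14.1, were those of the LPS males, in which Egr3 was 0.322 and 0.336 FPKM while Egr1 was still 4.77 and 4.74 FPKM. Nr4a1 over Nr4a2 was 1.08 to 2.93 in LPS+DMA, 0.788 to 1.21 in LPS and 1.32 to 3.75 in PBS.

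Per 100 FPKM of Camk2a, Egr3 was 11.0, 7.26, 3.66 and 8.97 FPKM in LPS+DMA libraries, 4.81, 6.94, 3.40 and 3.19 FPKM in LPS libraries, and 16.3, 11.5, 11.5 and 12.3 FPKM in PBS libraries. Every PBS library was thus above every LPS+DMA and every LPS library on this ratio, while Egr3 itself overlapped between LPS+DMA and PBS. Camk2a was 297 to 350 FPKM in LPS+DMA and 138 to 268 FPKM in PBS libraries, which lowers such a ratio in LPS+DMA for any gene. The share of all tested genes with this order was not counted. Per 1000 FPKM of the summed cortex and hippocampus markers, Egr3 was 25.4, 22.7, 11.5 and 27.0 FPKM in LPS+DMA libraries, 9.53, 18.9, 2.44 and 2.33 FPKM in LPS libraries, and 34.6, 29.4, 29.4 and 28.4 FPKM in PBS libraries, with PBS highest. That sum includes Camk2a, so the 2 ratios are not separate evidence. It was 986 to 1521 FPKM in LPS+DMA and 648 to 1043 FPKM in PBS libraries, and a higher sum lowers this ratio for any gene. The share of all tested genes with this order was not counted either. With the cortex and hippocampus score as a covariate, Egr3 differed by -0.81 on the log2 scale between LPS+DMA and PBS (SE 0.21, limma adjusted p = 0.498), which did not pass. Egr1 per 100 FPKM of Camk2a did not show that order, with 6.47 to 19.2 FPKM in LPS+DMA, 12.9 to 50.5 FPKM in LPS and 14.2 to 31.5 FPKM in PBS. Nor did Nr4a1 per 100 FPKM of Camk2a, with 3.07 to 6.69 FPKM in LPS+DMA and 4.79 to 8.85 FPKM in PBS. Egr1 per 1000 FPKM of the cortex and hippocampus sum overlapped too, with 20.4 to 57.4 FPKM in LPS+DMA and 36.2 to 66.9 FPKM in PBS. These ratios were not tested.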
